A study of Rattus norvegicus with 30 samples.

Results

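The lungs of untreated rats with severe acute pancreatitis were compared between 6 and 24 hours after induction, in the libraries labelled SAP-6h and SAP-24h (3 rats each, 6 of the 30 libraries of the series). Membership follows the labels alone, with no measured value used. All rats were male Sprague Dawley rats, 8 weeks old and 180 to 220 g, fasted for 12 hours before surgery. In the SAP rats, 5% sodium taurocholate, a bile salt, was infused backwards into the biliopancreatic duct at 0.1 mL per 100 g body weight, and no drug was given. They received the vehicles of the drug groups, intravenous saline and 0.5% carboxymethylcellulose sodium by stomach, planned at 2 and 12 hours, so that the SAP-6h rats were taken before the second dose. The Sham rats, whose pancreas was only rotated, and the Con rats, infused with sterile saline of the same volume, served as control rats. They were taken at the same hours and given the same vehicles (3 rats per group and hour, 12 in all). Per the study, the saline infusion caused mild pancreatitis, and Sham was taken as the actual control. Con is thus no reference for time alone. The time of day of surgery is not given in the sources used here, and the groups were 18 hours apart. Each library is the lung of a separate rat, as the methods describe the sampling.

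Acute lung injury is the main distant complication of severe pancreatitis. Enzymes and mediators released from the injured pancreas reach the lung with the blood, where endothelial cells and resident macrophages release chemokines that draw neutrophils out of the capillaries. In bulk tissue, fewer cells of a type and less RNA per cell cannot be told apart, and this holds for each cell type named below.

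The SAP libraries held 16813949 to 34692306 reads on genes. Lung identity was clear in all 6, with Sftpc, the surfactant protein of alveolar type 2 cells, at 19727 to 30191 FPKM (the fragment count of a gene per kilobase of its length, scaled to library depth). Of 8 pancreatic acinar genes in the tables, 5 (Amy2a3, Cela2a, Prss1, Pnlip and Clps) had means of 0 to 0.01 FPKM in both SAP groups, Cpa1 and Ctrb1 were under 1 FPKM in each rat, and the elastase Cela1 was at 12.4, 15.01 and 11.04 FPKM in SAP-6h and 11.1, 24.3 and 28.4 FPKM in SAP-24h. Only Cpa1, Ctrb1 and Cela1 had enough reads to be tested. Of these 3, 2 had an unadjusted p under 0.05 and none was called by edgeR's test. The part of pancreatic RNA in other results was not tested. SAP-24h rat 1 stood apart. Its log2(FPKM + 1) profile over 11821 protein-coding genes correlated at 0.946 and 0.961 with the other SAP-24h rats, against 0.980 between those 2, and its correlation with the SAP-6h rats was 0.938 to 0.946. Heart muscle genes also varied by rat, Myh6 being at 0.06, 13.8 and 16.6 FPKM in SAP-6h and 0.15, 0.13 and 5.34 in SAP-24h, and none of 11 heart genes was called by edgeR's test, 0 having an unadjusted p under 0.05 and 0 being called by DESeq2.

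Of 15934 genes tested, 386 (2.42%) differed between SAP-24h and SAP-6h at an adjusted p under 0.05 and a change of at least 2-fold, which is what "called" means here. At 24 hours, 277 genes (1.74%) were lower and 109 (0.684%) were higher. The genes that fell included 7 of 9 red blood cell genes, 5 of 15 T cell genes and 7 of 25 fibroblast genes, the collagens Col1a1 and Col3a1 among them. Those that rose included the neutrophil-attracting chemokines Cxcl1 and Cxcl2, 3 of 15 heat shock chaperones and the clock activators Arntl and Npas2. The 3 chaperone calls were lost without SAP-24h rat 1. The levels of the 3 rats did not overlap between the groups for 352 of the 386, while 24.0% of all genes tested had no overlap. By type, 379 called genes were protein coding, 4 were pseudogenes and 3 were annotated lncRNAs. At an unadjusted p under 0.05 there were 3952 genes (24.8%).

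**Figure D1:**
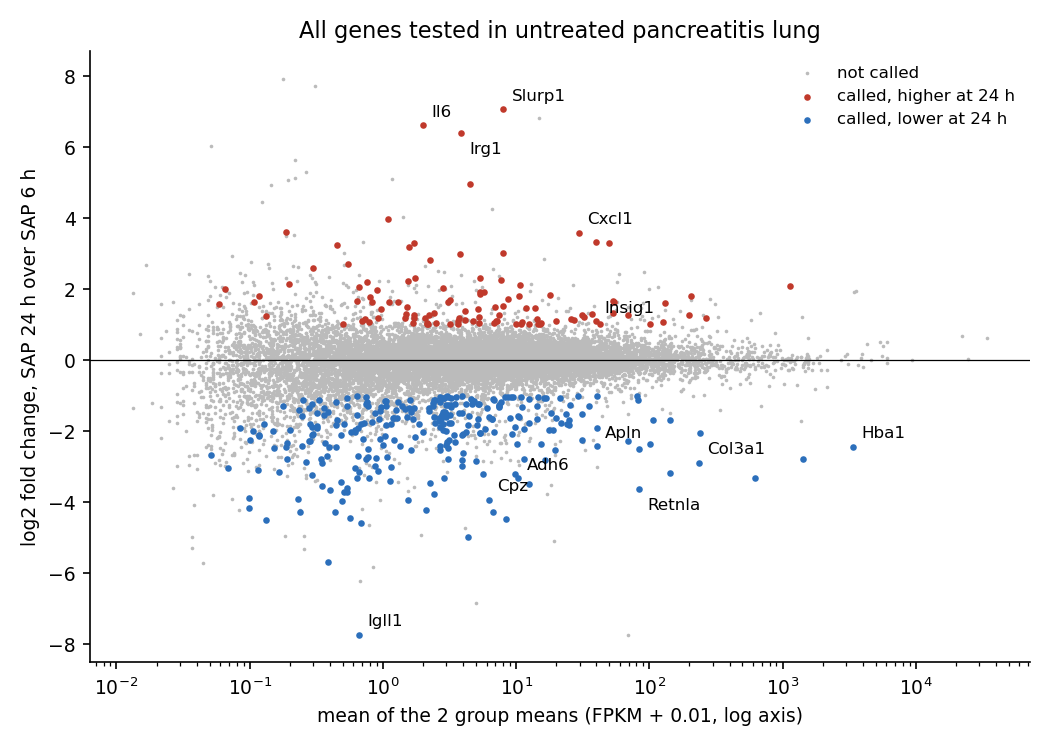
Each point is 1 of the 15934 genes tested, with the mean of the SAP-6h and SAP-24h FPKM means on a log axis and the log2 fold change of SAP-24h over SAP-6h on the y axis. The 277 genes called lower (blue) outnumber the 109 called higher (red), and several of the largest changes lie at low FPKM.

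The number of calls depended on the rats. It was 185 without SAP-6h rat 3, 202 without SAP-6h rat 1, 240 without SAP-6h rat 2, 236 without SAP-24h rat 3, 248 without SAP-24h rat 1 and 464 without SAP-24h rat 2. The calls shared with the 386 ranged from 167 without SAP-24h rat 1 to 284 without SAP-24h rat 2. Called in all 6 of these fits were 89 genes, 75 lower and 14 higher. Fitted on the 6 SAP libraries alone, 177 genes were called, 136 of them among the 386.

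The CXC chemokines Cxcl1 and Cxcl2, which bind the receptor Cxcr2 and attract neutrophils, rose from low levels at 6 hours. Of 12 CXC chemokines tested, 3 were called higher and none lower, and the median log2 fold change over the list was 0.15, against 0.02 over all genes tested. Cxcl1 was at 6.27, 4.55 and 4.16 FPKM in the SAP-6h rats and 119, 6.75 and 37.1 FPKM in the SAP-24h rats (log2 fold change 3.59 ± 0.65 (SE), adjusted p = 0.00425). Rat 1 was the highest and rat 2 lay barely above the 6-hour rats, without overlap. The Sham and Con rats of 24 hours were at 9.26 to 20 FPKM, so rat 2 lay below all of them. Rats 1 and 3 lay above them. The log2 fold change of Cxcl1 over the same hours was 0.89 in Sham and 0.70 in Con. Cxcl2 was at 0.99, 1.00 and 0.71 FPKM at 6 hours and 8.19, 1.13 and 10.8 FPKM at 24 hours (log2 fold change 2.99 ± 0.63, adjusted p = 0.00865), with rat 2 again the lowest. Cxcl6, of the same receptor class, was at 0.06, 0.09 and 0.12 FPKM at 6 hours and 0.63, 0.22 and 1.55 FPKM at 24 hours (log2 fold change 3.24 ± 0.90, adjusted p = 0.0357). Cxcl1 and Cxcl2 were called whichever rat was left out, whereas Cxcl6 was called in 1 of the 6 fits, with adjusted p = 0.152 without SAP-24h rat 3. In the fit of the 6 SAP libraries alone, none of the 3 was called. Cxcl3, the most abundant neutrophil chemokine of the list, was at 81.2, 94.5 and 117 FPKM and 92.6, 342 and 286 FPKM (log2 fold change 1.38 ± 0.45, adjusted p = 0.0669), and here rat 1 was the lowest of the SAP-24h rats. Cxcl9 and Cxcl10, attractants of T cells, had log2 fold changes of -2.31 ± 0.91 and 1.59 ± 1.60 (adjusted p = 0.122 and 0.566).

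The promoters of the 3 called chemokines are shown because they share letters that transcription factors of the NF-kB family, activated in inflammation, bind. The windows run from 250 bases before to 50 bases after the start (RefSeq, GRCr8, 5′ to 3′ on the gene's strand), and capitals mark matches on either strand to GGG, any 2 bases and TTTCC. Cxcl1 lies at chr14:17479272-17479571, Cxcl2 at chr14:17467206-17467505 and Cxcl6 at chr14:17596368-17596667, all on the minus strand.
Cxcl1: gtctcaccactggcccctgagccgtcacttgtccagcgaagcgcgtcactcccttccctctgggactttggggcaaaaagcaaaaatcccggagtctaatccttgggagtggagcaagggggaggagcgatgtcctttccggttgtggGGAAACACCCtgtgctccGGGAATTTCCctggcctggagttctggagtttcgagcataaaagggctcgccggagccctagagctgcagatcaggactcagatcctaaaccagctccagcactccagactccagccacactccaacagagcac
Cxcl2: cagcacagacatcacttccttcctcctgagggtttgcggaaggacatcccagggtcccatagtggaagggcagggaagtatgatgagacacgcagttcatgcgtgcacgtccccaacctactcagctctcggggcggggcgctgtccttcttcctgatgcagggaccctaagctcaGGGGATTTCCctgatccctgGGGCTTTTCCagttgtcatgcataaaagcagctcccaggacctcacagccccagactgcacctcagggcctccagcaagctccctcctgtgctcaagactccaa
Cxcl6: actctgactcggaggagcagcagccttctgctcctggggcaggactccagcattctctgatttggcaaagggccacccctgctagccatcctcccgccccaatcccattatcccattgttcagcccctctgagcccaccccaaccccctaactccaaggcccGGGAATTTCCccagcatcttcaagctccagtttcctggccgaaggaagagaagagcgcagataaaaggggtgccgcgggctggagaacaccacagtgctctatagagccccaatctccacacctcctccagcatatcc
The window of Cxcl1 held 2 matches, that of Cxcl2 held 2 and that of Cxcl6 held 1. Among the 12 CXC chemokines, 11 were matched to a window, and of those 11 these 3 held a match. Cxcl3 had no window and was not searched. The letters are in 1.53% of all 33469 promoter windows. The motif was set down for another list and applied to the chemokines after their values were known, so the overlap is a description.

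The NF-kB list itself held 15 tested genes, 1 called higher and none lower, with all 15 above 0 and a median log2 fold change of 0.29. Nfkbiz, a nuclear cofactor induced by NF-kB that is needed for Il6 expression, rose from 3.74, 3.28 and 2.89 to 8.63, 3.47 and 9.41 FPKM (log2 fold change 1.22 ± 0.28, adjusted p = 0.0149). Rat 2 lay within the range of the 6-hour rats, and the gene was called in 3 of the 6 fits, with adjusted p = 0.0675 without SAP-6h rat 3. The matching letters are in its promoter as well, at chr11:58251471-58251770 on the plus strand.
Nfkbiz: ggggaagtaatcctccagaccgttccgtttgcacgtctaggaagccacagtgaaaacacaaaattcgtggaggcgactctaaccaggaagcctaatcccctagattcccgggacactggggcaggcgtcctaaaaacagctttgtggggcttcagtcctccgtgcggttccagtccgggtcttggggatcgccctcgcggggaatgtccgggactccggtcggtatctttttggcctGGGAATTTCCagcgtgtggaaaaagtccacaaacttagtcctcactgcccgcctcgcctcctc
Of the 14 list members matched to a window, 5 held the motif, among them Nfkbia and Tnfaip3, which encode inhibitors of the pathway.

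Il6, the cytokine that drives the acute-phase response, was at 0.06, 0.02 and 0.05 FPKM in the SAP-6h rats, which was 1 or 2 reads per library. It was at 11.04, 0.08 and 0.63 FPKM in the SAP-24h rats, 406, 3 and 23 reads (log2 fold change 6.61 ± 1.60, adjusted p = 0.018). The rise was thus carried by rat 1, the log2 fold change being 3.01 without it, with adjusted p = 0.238 without SAP-24h rat 1. Irg1, which encodes the itaconate-producing enzyme of activated macrophages, was at 0.13, 0.07 and 0.08 FPKM at 6 hours and 0.25, 0.19 and 22.3 FPKM at 24 hours (log2 fold change 6.39 ± 1.55, adjusted p = 0.0186), and here rat 3 carried the value, with adjusted p = 0.512 without SAP-24h rat 3. Gpr84, a fatty acid receptor of activated myeloid cells, was at 0.33, 0.18 and 0.37 FPKM at 6 hours and 2.63, 1.15 and 22.4 FPKM at 24 hours (log2 fold change 4.97 ± 1.07, adjusted p = 0.00985), again highest in rat 3, with adjusted p = 0.0891 without SAP-24h rat 3. All 3 genes were higher in each SAP-24h rat than in any SAP-6h rat, as the rule for genes named by size required, and different rats led. The control rats of 24 hours were at 0 to 0.86 FPKM for Il6 and 0.03 to 0.75 FPKM for Irg1. Il6 in rats 2 and 3 and Irg1 in rats 1 and 2 lay within those ranges. Gpr84 lay above the controls of 24 hours (0.06 to 0.77 FPKM) in every SAP-24h rat. Ptx3, a soluble pattern recognition protein of inflamed tissue, rose from 1.30, 1.87 and 2.55 to 9.47, 3.23 and 13.4 FPKM (log2 fold change 2.30 ± 0.49, adjusted p = 0.00982).

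Acute-phase and antimicrobial proteins lay mostly above 0, with 2 of 19 tested genes called higher, 17 above 0 and a median log2 fold change of 1.13 (Sham -0.12, Con -0.87 over the same hours). Called lower was 1 member, Wfdc15b, which RefSeq also names Pi3 (log2 fold change -3.46 ± 0.96, adjusted p = 0.0347). Wfdc21, a whey acidic protein of neutrophils and epithelium, rose from 6.99, 12.1 and 10.3 FPKM to 43.3, 56.8 and 170.4 FPKM (log2 fold change 3.29 ± 0.67, adjusted p = 0.00768). It was called whichever rat was left out. Orm1, an acute-phase plasma protein, rose from 4.75, 4.08 and 3.92 to 11.9, 15.5 and 24.5 FPKM (log2 fold change 2.11 ± 0.63, adjusted p = 0.0486), and was called in 1 of the 6 fits, with adjusted p = 0.136 without SAP-24h rat 3. Slurp1, a secreted protein of squamous and mucosal epithelium, had the largest rise among the named genes. It was at 0, 0.05 and 0.41 FPKM (0, 1 and 4 reads) and then at 3.67, 21.2 and 22.4 FPKM (64, 391 and 387 reads), a log2 fold change of 7.06 ± 1.39 (adjusted p = 0.0068) that was called in every fit leaving out 1 rat. It was the 1 member called of 16 keratins and squamous genes, of which 11 were below 0 (median log2 fold change -0.83, Sham -0.20, Con 0.25), Krt5 being at -2.73 ± 1.52 (adjusted p = 0.272). Sbsn, a gene of squamous epithelium outside that list, was at 0.74, 0.64 and 0.30 FPKM at 6 hours and 0.82, 4.78 and 2.00 FPKM at 24 hours (log2 fold change 2.22 ± 0.52, adjusted p = 0.0155).

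**Figure D2:**
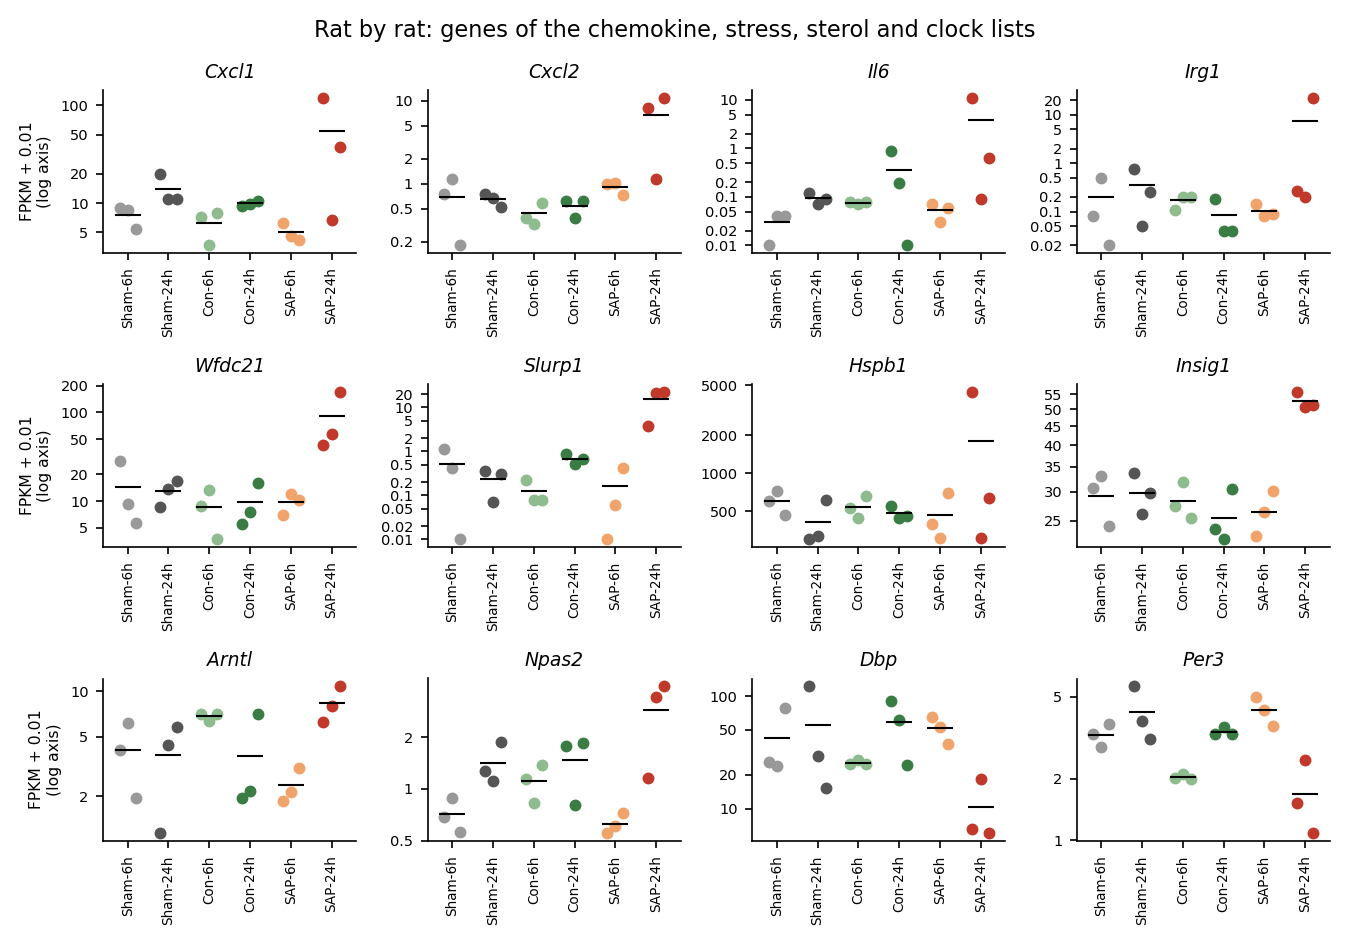
Each point is 1 rat (FPKM + 0.01, log axis, 6 groups of 3 rats), and the line is the mean of the group. Insig1 and Slurp1 were high in all 3 SAP-24h rats, whereas Il6, Irg1 and Hspb1 were high mainly in 1 rat each.

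No neutrophil gene was called among 17 tested by edgeR's quasi-likelihood test, while 3 had an unadjusted p under 0.05, DESeq2 called 0, and the fit of the 6 SAP libraries alone called 3 higher. The median log2 fold change of the list was 0.67, against 0.07 in Sham and -1.86 in Con over the same hours. S100a8 and S100a9, the calprotectin subunits that fill the neutrophil cytoplasm, show the spread. S100a8 was at 1591, 2162 and 880.3 FPKM in SAP-6h and 6662, 2065 and 7944 FPKM in SAP-24h (log2 fold change 1.96 ± 1.02, adjusted p = 0.238). The list's FPKM summed to 2681 to 4997 in the SAP-6h rats, and to 13705, 4952 and 18123 in the SAP-24h rats. By this sum, in which S100a8 and S100a9 had the largest means in SAP-24h (5557 and 5332 FPKM), rat 2 lay at the 6-hour level. SAP-24h rat 2 was also the rat with the lowest Cxcl1 and Cxcl2, and the part of neutrophil number in those levels was not tested. Mmp9, a gelatinase stored in neutrophil granules, was at 11.3, 12.2 and 7.99 FPKM at 6 hours and 33.2, 49.98 and 46.4 FPKM at 24 hours (log2 fold change 2.13 ± 0.83, adjusted p = 0.116). For this gene of the same list, rat 2 was the highest.

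Of 15 heat shock chaperones tested, 3 were called higher and none lower, with a median log2 fold change of 0.77 and 14 of 15 above 0. Hspb1, a small heat shock protein, was at 399.6, 310.0 and 706 FPKM in SAP-6h and at 4436, 306 and 643 FPKM in SAP-24h (a rise of 2.1 ± 0.61 on the log2 scale, adjusted p = 0.0421). The groups overlap, and leaving out 1 rat moved the log2 fold change to 0.06 (adjusted p = 0.952 without SAP-24h rat 1). Hspa1b, the inducible Hsp70, was at 4.46, 3.22 and 16.2 FPKM at 6 hours and 170.4, 3.49 and 39.3 FPKM at 24 hours (log2 fold change 3.34 ± 0.88, adjusted p = 0.0277), which became 1.48 (adjusted p = 0.273 without SAP-24h rat 1). Its near-identical copy Hspa1a was listed at 0 to 0.01 FPKM, so the split of reads between the copies is uncertain. Hspd1, the mitochondrial chaperonin, was at 32.8, 43.9 and 55.98 FPKM at 6 hours and 188, 38.5 and 58.9 FPKM at 24 hours (log2 fold change 1.26 ± 0.36, adjusted p = 0.0392), which became 0.20 (adjusted p = 0.643 without SAP-24h rat 1). Each of the 3 was thus highest in rat 1 by a wide margin, and rat 2 lay at the 6-hour level. Gadd45g, a growth arrest gene, and Tfpi2, an inhibitor of serine proteases, followed the same rat. Gadd45g was at 163, 43.5 and 31.01 FPKM in the SAP-24h rats and 23.9 to 30.1 in the SAP-6h rats, a log2 fold change of 1.66 ± 0.44 (adjusted p = 0.0286) that became 0.48 (adjusted p = 0.416 without SAP-24h rat 1). Tfpi2 was at 8.06, 0.15 and 0.87 FPKM in the SAP-24h rats and 0.14 to 0.53 in the SAP-6h rats, a log2 fold change of 3.30 ± 0.92 (adjusted p = 0.0347) that became 0.61 (adjusted p = 0.685 without SAP-24h rat 1). The promoter of Hspd1, at chr9:64083988-64084287 on the minus strand, is shown because it holds 2 overlapping matches to the heat shock element (GAA, any 2 bases, TTC, any 2 bases, GAA, on either strand), in capitals, a motif in 0.798% of all windows.
Hspd1: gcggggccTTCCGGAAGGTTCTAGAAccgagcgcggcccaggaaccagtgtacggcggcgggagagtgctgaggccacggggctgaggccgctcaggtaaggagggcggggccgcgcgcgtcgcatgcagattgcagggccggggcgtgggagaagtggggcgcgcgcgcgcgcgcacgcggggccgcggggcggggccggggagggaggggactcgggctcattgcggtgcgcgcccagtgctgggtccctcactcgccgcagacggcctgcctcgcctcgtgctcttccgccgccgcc
Of 12 list members matched to a window, 4 held this motif. Among these 12 were 2 called genes, of which 1, Hspd1, held it.

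Of 17 genes of cholesterol synthesis and uptake, 2 were called higher and none lower, with 15 above 0 and a median log2 fold change of 0.49. Insig1, which holds the sterol sensor in the endoplasmic reticulum, rose from 22.8, 26.4 and 30.1 FPKM to 55.8, 50.7 and 51.4 FPKM (log2 fold change 1.10 ± 0.17, adjusted p = 0.00212). The 3 SAP-24h rats lay within a narrow range above all Sham and Con rats of 24 hours, which were at 22.3 to 33.6 FPKM, and the call held whichever rat was left out. Idi1, an isomerase of the isoprenoid steps, was at 2.01, 2.18 and 3.10 FPKM at 6 hours and 7.72, 2.17 and 7.42 FPKM at 24 hours (log2 fold change 1.37 ± 0.35, adjusted p = 0.0238), with rat 2 at the 6-hour level, and the value became 1.04 (adjusted p = 0.108 without SAP-24h rat 1). Timp1, an inhibitor of matrix metalloproteinases, rose from 84.9, 84.6 and 125 to 518, 164 and 265 FPKM (log2 fold change 1.82 ± 0.41, adjusted p = 0.0124). Leaving out the highest rat moved it to 1.18 (adjusted p = 0.0866 without SAP-24h rat 1). Adamts4, a protease that cuts aggrecan, rose from 0.25, 0.55 and 1.05 to 8.21, 1.26 and 2.06 FPKM (log2 fold change 2.81 ± 0.74, adjusted p = 0.0277), which became 1.50 (adjusted p = 0.217 without SAP-24h rat 1). Of 15 metalloproteinase genes and inhibitors tested, these 2 were called. Further genes called higher by list were Slc39a8, a zinc importer (1.22 ± 0.37), Vcam1, a leukocyte adhesion molecule of the endothelium (1.27 ± 0.37), and Vwa1, a matrix protein of the vessel wall (1.47 ± 0.35), as log2 fold changes with adjusted p = 0.0496, 0.0403 and 0.0163. Slc39a8 was called in 0, Vcam1 in 2 and Vwa1 in 3 of the 6 fits leaving out 1 rat. The SAP-6h and SAP-24h rats overlap for Vcam1, the 1 gene called of 12 of endothelial activation and adhesion. Clspn, a checkpoint protein of DNA replication, rose from 0.27, 0.32 and 0.25 to 0.53, 1.25 and 1.89 FPKM (log2 fold change 2.20 ± 0.42, adjusted p = 0.00579), and was not called in the fit of the 6 SAP libraries alone.

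Core clock genes were called in opposite directions in the arms of the feedback loop, in which Arntl and its partners Clock and Npas2 activate genes, among them the Per and Cry genes, whose products repress them. In the activating arm, 2 of 6 tested genes were called higher and none lower (median log2 fold change 0.96, Sham 0.21, Con -0.39). In the repressing arm and its outputs, 2 of 13 were called lower and none higher (median -0.66, Sham 0.14, Con 0.47). Arntl was at 1.86, 2.11 and 3.08 FPKM in SAP-6h and 6.23, 7.97 and 10.9 FPKM in SAP-24h (log2 fold change 1.93 ± 0.51, adjusted p = 0.0293). Npas2 was at 0.54, 0.60 and 0.71 FPKM at 6 hours and 1.15, 3.45 and 3.99 FPKM at 24 hours (log2 fold change 2.30 ± 0.36, adjusted p = 0.00212). Neither overlapped between the groups. Clock itself was at 1.72, 2.07 and 2.16 FPKM at 6 hours and 3.41, 3.26 and 4.40 FPKM at 24 hours, a log2 fold change of 1.00 ± 0.20 that lay just under the 2-fold threshold (adjusted p = 0.00682). Dbp, an output factor of the clock, fell from 65.7, 52.96 and 37.3 to 6.55, 18.5 and 6.04 FPKM (log2 fold change -2.24 ± 0.66, adjusted p = 0.0439), and Per3, a repressor, from 5.01, 4.30 and 3.58 to 1.51, 2.44 and 1.07 FPKM (log2 fold change -1.26 ± 0.28, adjusted p = 0.0107). Called in the fits leaving out 1 rat were Npas2 in all 6, Per3 in 4, Arntl in 2 with adjusted p = 0.103 without SAP-6h rat 1, and Dbp in 1 with adjusted p = 0.146 without SAP-24h rat 3. Control rats varied at these hours, Dbp being at 15.4 to 123 FPKM in the Sham and Con rats of 24 hours. None of the 4 genes held the E-box CACGTG or the D-box TTATGTAA in its window. Of 16 clock genes matched, 5 held the first and 1 the second, against 6.42% and 0.893% of all windows.

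Of 25 fibroblast and mesenchymal genes tested, 7 were called lower and none higher, with a median log2 fold change of -0.25, close to that in Sham (-0.20) and Con (-0.16). The 7 were Col1a1, Col1a2, Col3a1, Col14a1, Postn, Tnc and Npnt, which encode matrix proteins, while the matrix genes Fn1 (0.21), Lox (0.65), Eln (-0.44) and Col6a1 (-0.58) of the same list were not called. Col1a2 was at means of 0.587 FPKM in SAP-6h and 0.0767 FPKM in SAP-24h, against 170 and 31.3 FPKM for Col1a1. The reason for its low level was not tested. Over the 38 tested genes with a collagen alpha chain symbol, a group chosen after the values were seen, 11 were lower and none higher, and 34 were below 0 (median log2 fold change -0.96, Sham -0.20, Con -0.35). Col3a1, a fibrillar collagen of vessel walls, fell from 272, 522 and 468 FPKM to 28.5, 51.2 and 80.5 FPKM (log2 fold change -2.89 ± 0.50, adjusted p = 0.00301). Col1a1, the main chain of type I collagen, fell from 86.3, 222 and 203 to 7.33, 34.2 and 52.5 FPKM (log2 fold change -2.36 ± 0.54, adjusted p = 0.0141). Rat 1 was the lowest SAP-24h rat for both, and both were called whichever rat was left out, although in the fit of the 6 SAP libraries alone Col3a1 was called and Col1a1 was not. Postn, a matrix protein of activated fibroblasts, fell from 57.2, 68.7 and 67.8 FPKM to 13.2, 12.6 and 22.2 FPKM (log2 fold change -1.92 ± 0.40, adjusted p = 0.00862). Col14a1 and Tnc, an organiser of fibrils and an adhesion-modulating glycoprotein, had log2 fold changes of -2.30 ± 0.55 and -2.16 ± 0.51 (adjusted p = 0.0171 and 0.0169) and were each called in 3 of the 6 fits.

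Cpz, a carboxypeptidase of the extracellular matrix, shared the smallest adjusted p of the comparison with Adh6, Grk5 and Hsd17b7. It fell from 10.3, 12.1 and 12.97 FPKM to 0.33, 1.08 and 0.77 FPKM (log2 fold change -3.93 ± 0.54, adjusted p = 0.000791), and the Sham and Con rats of 24 hours, at 1.51 to 4.41 FPKM, lay between those values. Over the same hours the log2 fold change of Cpz was -1.93 in Sham and -1.88 in Con. Named after their values were seen, the proteoglycans Bgn and Fmod and the elastic fibre gene Fbln5 fell as well. Bgn was at 340.1, 392.5 and 446 FPKM in SAP-6h and 61.9, 103 and 102 FPKM in SAP-24h (log2 fold change -2.05 ± 0.34, adjusted p = 0.0023). Fmod went from 31.9, 28.6 and 25.6 to 6.29, 7.59 and 6.67 FPKM, and Fbln5 from 35.5, 42.5 and 40.9 to 7.28, 12.03 and 12.3 FPKM. These 3 genes were called in every fit leaving out 1 rat, and the SAP-24h rats lay below all 6 control rats of 24 hours for each.

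Red blood cell genes fell, with 7 of 9 tested called lower, none higher and a median log2 fold change of -2.79 (Sham -0.54, Con -1.36). Haemoglobin genes took 0.571 to 0.854% of reads in the SAP-6h libraries and 0.106 to 0.185% in the SAP-24h libraries. At 6 hours the share was 0.0674 to 0.346% in Sham and 0.208 to 0.632% in Con. At 24 hours it was 0.0472 to 0.37% in Sham and 0.131 to 0.196% in Con. The SAP-24h libraries thus lay within the range of the control rats of 24 hours. Per the study's methods the lungs were flushed through the pulmonary artery, and the part of retained blood in these levels was not tested. Hba1, an alpha globin with a near-identical copy in Hba2, fell from 4408, 5750.3 and 7143 FPKM to 771, 1333 and 878 FPKM (log2 fold change -2.44 ± 0.73, adjusted p = 0.0476). It was called in 0 of the 6 fits leaving out 1 rat, with adjusted p = 0.132 without SAP-24h rat 3. Klf1, the erythroid master factor, fell from 2.25, 3.59 and 7.76 to 0.23, 0.28 and 0.42 FPKM (log2 fold change -3.76 ± 0.83, adjusted p = 0.0113), called in 6 of 6 fits. Slc4a1, the anion exchanger band 3, went from 7.26, 11.7 and 29.1 to 0.14, 1.15 and 0.76 FPKM (log2 fold change -4.47 ± 1.27, adjusted p = 0.038), with adjusted p = 0.119 without SAP-24h rat 1. Ahsp, the chaperone of free alpha globin, went from 11.9, 26.5 and 30.8 to 0.71, 2.27 and 2.78 FPKM, and Hemgn, a nuclear factor of haematopoietic cells, from 1.14, 2.82 and 4.73 to 0.12, 0.15 and 0.25 FPKM. Ahsp and Hemgn were called in 0 of the 6 fits, so these calls need all 6 SAP rats. Kel, a blood group glycoprotein, and Tspo2, a cholesterol transporter of erythroblasts, were lower too, with log2 fold changes of -4.59 ± 1.10 and -4.45 ± 1.26 (adjusted p = 0.0172 and 0.0385), called in 3 and 1 of the 6 fits. Tspo2 rests on 2 reads over the SAP-24h group against 47 over SAP-6h, a ratio of 25.3 (exact 95% interval 6.61 to 215, counting error only).

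Rat 3 was the highest SAP-6h rat for most of these blood genes, and it was also the shallowest library. Of 11 platelet genes, 2 were called lower and none higher, and all 11 were below 0 (median -1.56, Sham -0.26, Con -0.94). Itga2b, the platelet fibrinogen receptor subunit, was at 4.05, 8.57 and 16.1 FPKM in SAP-6h and 4.31, 2.14 and 2.22 FPKM in SAP-24h (log2 fold change -1.59 ± 0.47, adjusted p = 0.0471). The groups overlap, and the call was lost in 4 of 6 fits, with adjusted p = 0.249 without SAP-6h rat 3. Gp9, a chain of the von Willebrand factor receptor, went from 2.90, 6.74 and 9.67 to 2.13, 0.79 and 1.15 FPKM (log2 fold change -2.11 ± 0.53, adjusted p = 0.0228). Igll1, the surrogate light chain of pre-B cells, was at 0.45, 0.97 and 2.49 FPKM in SAP-6h (9, 25 and 31 reads) and had no read in any SAP-24h library. Against a floor of 3 reads over the SAP-24h group it was at least 27.1-fold lower (adjusted p = 0.0403, called in 0 of the 6 fits leaving out 1 rat). The pre-B genes Vpreb1 and Dntt, named after their values were seen, were called lower as well. Vpreb1 was at 0.20, 0.89 and 1.73 FPKM in SAP-6h and 0.14, 0 and 0.04 FPKM in SAP-24h, and Dntt at 0.06, 0.45 and 0.81 FPKM and 0.03, 0.01 and 0.01 FPKM, with calls in 0 and 1 of the 6 fits. Of 14 B cell and plasma cell genes 1 was called lower and none higher, and all 14 were below 0 (median -0.90, Sham -0.06, Con -0.78). The called gene was Igj, now named Jchain, the chain that joins IgA and IgM into polymers in plasma cells. It fell from 129, 129.9 and 238 FPKM to 51.7, 31.2 and 60.02 FPKM (log2 fold change -1.69 ± 0.49, adjusted p = 0.0406). The call was lost in the fit of the 6 SAP libraries alone and held in 1 of the 6 fits leaving out 1 rat, with adjusted p = 0.155 without SAP-6h rat 3.

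T cell genes lay below their 6-hour levels. Of 15 tested, 5 were called lower and none higher, all 15 were below 0, and the median log2 fold change was -1.63 (Sham -0.37, Con -0.13). Cd3e, a chain of the T cell receptor complex, fell from 10.6, 8.04 and 7.60 FPKM to 1.71, 1.63 and 2.58 FPKM (log2 fold change -2.06 ± 0.51, adjusted p = 0.0209). Cd3d, its partner chain, fell from 10.7, 7.84 and 7.66 to 1.93, 1.76 and 2.27 FPKM (log2 fold change -2.04 ± 0.48, adjusted p = 0.0158). The SAP-24h rats lay below all 6 control rats of 24 hours for both genes, and for Cd3e the SAP-6h rats lay within the range of the 6-hour control rats. Lck and Zap70, the kinases that carry the receptor signal, fell by 1.66 and 1.81 on the log2 scale (adjusted p = 0.0381 and 0.0293), as did Ccr7, the lymph node homing receptor, by 1.48 (adjusted p = 0.0404). Calls in the fits leaving out 1 rat numbered 5 of 6 for Cd3d, 4 for Cd3e, 1 for Zap70 and 0 for Lck and Ccr7, with adjusted p = 0.109 without SAP-6h rat 1 for Lck. Of 13 cytotoxic and natural killer cell genes 1 was called lower, Ctsw, a cathepsin of killer cells, which fell from 7.70, 5.57 and 7.43 to 1.08, 0.56 and 1.11 FPKM (log2 fold change -2.81 ± 0.66, adjusted p = 0.016). Ccl21, the chemokine that draws Ccr7-bearing cells into lymphatics, fell from 220.0, 255 and 189.9 FPKM to 63.8, 71.4 and 56.7 FPKM (log2 fold change -1.69 ± 0.44, adjusted p = 0.0257), and was called in 2 of 6 fits. It was the 1 gene called of 15 CC chemokines.

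Mcpt2, a chymase of mast cells, was at 3.19, 24.8 and 10.5 FPKM in SAP-6h and 0.13, 0.61 and 1.10 FPKM in SAP-24h (log2 fold change -4.29 ± 0.94, adjusted p = 0.0111). Further mast cell and basophil proteases were picked because they were called, with no list behind them, so that their number says nothing of such genes as a group. Cma1, another chymase, went from 2.71, 5.56 and 6.87 to 0.43, 1.02 and 1.23 FPKM (log2 fold change -2.39 ± 0.45, adjusted p = 0.00559), and Cpa3, the mast cell carboxypeptidase, from 3.20, 4.06 and 6.35 to 0.32, 0.61 and 1.49 FPKM (log2 fold change -2.41 ± 0.52, adjusted p = 0.0102). Mcpt2, Cma1 and Cpa3 were called whichever rat was left out, but not in the fit of the 6 SAP libraries alone. Mcpt1 had a log2 fold change of -2.30 ± 0.65 (adjusted p = 0.038) and was called in 1 of the 6 fits, and Mcpt8l2 one of -2.61 ± 0.66 (adjusted p = 0.0238), called in 2, and neither was called in the 6-library fit. The Mcpt genes are a family of close copies, so that their reads may be shared. Retnla, a resistin-like protein of alternatively activated myeloid cells and epithelium, fell from 76.5, 218 and 172 FPKM to 15.1, 10.8 and 8.33 FPKM (log2 fold change -3.63 ± 0.82, adjusted p = 0.0125), with adjusted p = 0.0554 without SAP-24h rat 3. Of 9 class II MHC genes, 2 were called lower and none higher. RT1-Ba, an antigen-presenting chain in a gene family of close copies, fell from 109.5, 379 and 289 FPKM to 17.6, 35.5 and 27.03 FPKM (log2 fold change -3.17 ± 0.69, adjusted p = 0.0108), and the SAP-6h rats lay above all 6 control rats of 6 hours, at 26 to 79 FPKM. Ciita, the transactivator of class II genes, had a log2 fold change of -1.03 ± 0.31 (adjusted p = 0.0466), called in 1 of 6 fits. Among further large falls of genes with a symbol, Wfdc15b, a whey acidic protein, went from 6.61, 4.03 and 1.80 to 0.42, 0.45 and 0.18 FPKM and Trh, thyrotropin-releasing hormone, from 1.71, 1.54 and 2.99 to 0.08, 0.23 and 0.23 FPKM. Wfdc15b was called in 1 and Trh in 3 of the 6 fits. Larger than these were the falls of 2 protein-coding genes known only by clone names, AABR07060971.1 on chromosome 4 (mean 8.38 FPKM in SAP-6h and 0.24 in SAP-24h, log2 fold change -4.98 ± 1.18, adjusted p = 0.0165) and AABR07065834.1 on chromosome 6 (means 4.03 and 0.183 FPKM, log2 fold change -4.23 ± 1.05, adjusted p = 0.0213), called in 4 and 3 of the 6 fits.

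**Figure D3:**
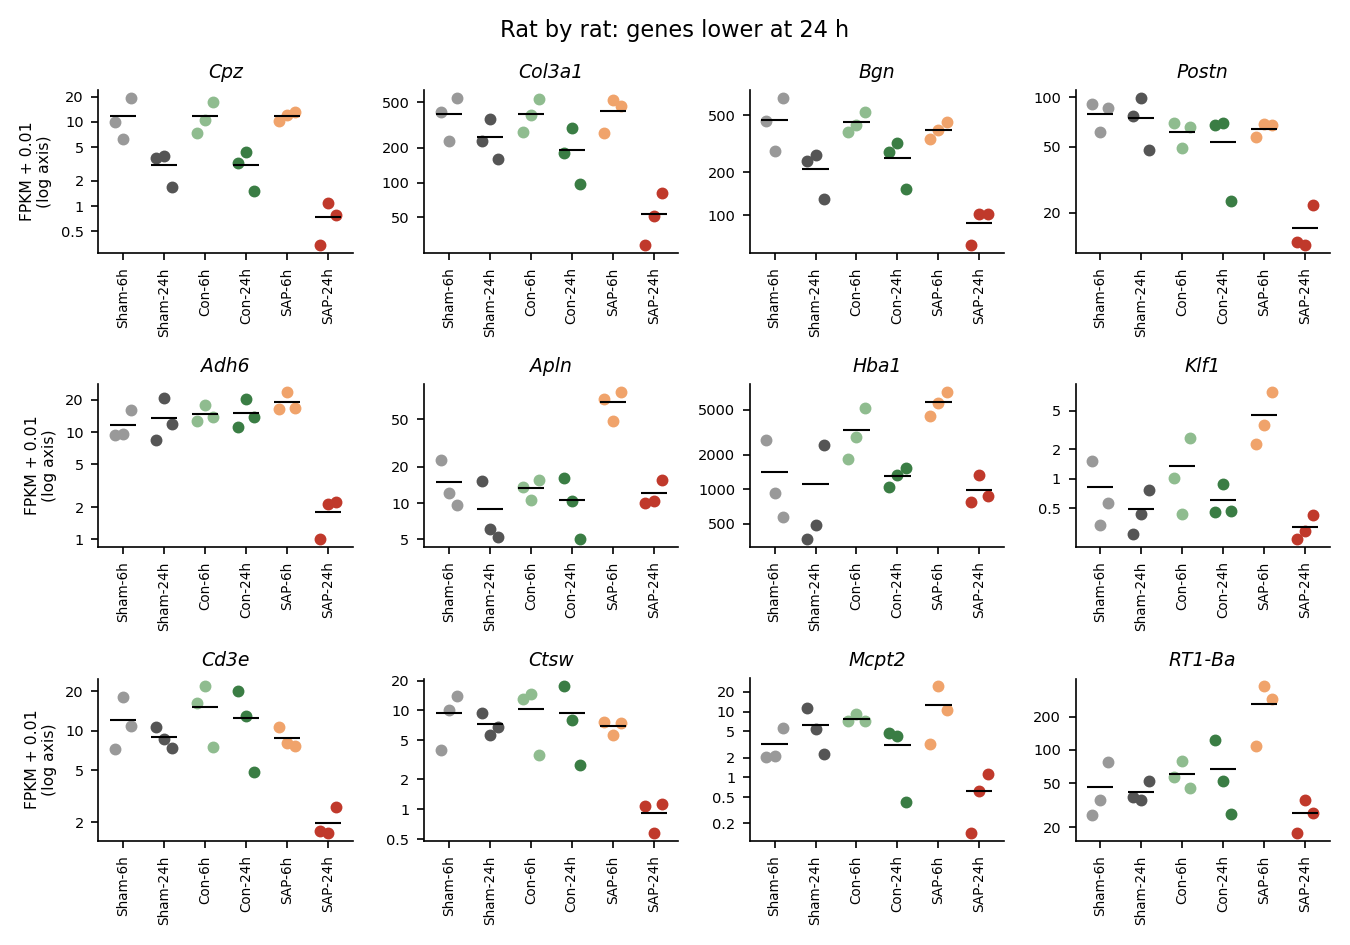
Each point is 1 rat (FPKM + 0.01, log axis, 6 groups of 3 rats), and the line is the mean of the group. Adh6, Cd3e, Ctsw and Col3a1 were lowest in SAP-24h among all groups, whereas Apln and RT1-Ba were highest in SAP-6h and no longer above the control levels in SAP-24h.

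The endothelial peptide system of apelin fell with its receptor. Apln, made by tip cells of growing vessels, was at 74.2, 48.04 and 84.3 FPKM in SAP-6h and 9.96, 10.5 and 15.6 FPKM in SAP-24h (log2 fold change -2.43 ± 0.45, adjusted p = 0.00536), while the control rats were at 9.64 to 22.7 FPKM at 6 hours and 4.97 to 16.2 FPKM at 24 hours. The SAP-6h rats thus lay above every control rat of 6 hours and the SAP-24h rats within the range of the controls. Aplnr, its receptor, went from 45.04, 56.6 and 38.8 to 9.39, 16.3 and 20.7 FPKM (log2 fold change -1.51 ± 0.39, adjusted p = 0.0248) and lay below all controls of 24 hours, and the value became -1.29 (adjusted p = 0.101 without SAP-24h rat 1). Of 22 endothelial identity genes, these 2 were called lower and Vwa1 was called higher.

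Among airway epithelial genes, 3 of 38 motile cilia genes were called lower and none higher (median -0.38, Sham 0.88, Con -0.03). Stoml3, a stomatin-like protein of ciliated cells, was at 0.18, 1.55 and 1.20 FPKM at 6 hours and 0.12, 0.05 and 0.05 FPKM at 24 hours (log2 fold change -3.59 ± 0.86, adjusted p = 0.0175). Zmynd12 and Ccdc96, both cilium components, had log2 fold changes of -1.70 ± 0.37 and -1.32 ± 0.32 (adjusted p = 0.00994 and 0.0193), and the structural markers Dnai1 and Tekt1 had values of -0.46 ± 0.30 and -0.40 ± 0.24 (adjusted p = 0.353 and 0.311). Muc4, a membrane mucin, was at 0.05, 0.30 and 0.15 FPKM at 6 hours and 0, 0.02 and 0.01 FPKM at 24 hours, with 0 to 4 reads per SAP-24h library (log2 fold change -4.16 ± 1.09, adjusted p = 0.0278). The alcohol dehydrogenases Adh6 and Adh7, of which Adh7 also acts on retinol, fell. Adh6 was at 16.4, 23.7 and 16.9 FPKM in SAP-6h and 0.99, 2.14 and 2.23 FPKM in SAP-24h (log2 fold change -3.32 ± 0.45, adjusted p = 0.000791), and Adh7 was at 0.52, 0.71 and 0.33 FPKM at 6 hours and 0.07, 0.05 and 0.03 FPKM at 24 hours (log2 fold change -3.23 ± 0.83, adjusted p = 0.0248). Adh6 was called whichever rat was left out, and Adh7 in 2 of 6 fits. Of 11 dehydrogenases tested, these 2 were called.

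Several lists drawn up for this tissue gave no call by edgeR's test. Of 17 alveolar type 2 genes, 0 were called (3 with an unadjusted p under 0.05, 0 by DESeq2), Sftpc having a log2 fold change of 0.04 ± 0.21. For 12 alveolar type 1 genes these numbers were 0, 1 and 0, for 13 fluid channels and pumps 0, 3 and 0, for 13 epithelial junction genes 0, 1 and 0, for 18 macrophage genes 0, 5 and 0, and for 26 interferon-stimulated genes 0, 0 and 0. Among 18 glucocorticoid targets they were 0, 3 and 0, and the metallothionein Mt2A was at 1103, 909.7 and 724 FPKM in SAP-6h and 4646, 514 and 532 FPKM in SAP-24h, high in rat 1. Its log2 fold change of 1.22 ± 0.97 (adjusted p = 0.451) became -0.76 (adjusted p = 0.712 without SAP-24h rat 1). The unfolded protein list, 0 of 17 called with 8 at an unadjusted p under 0.05 and 2 higher by DESeq2, held the chaperone Hspa5, at 137, 172 and 325 FPKM at 6 hours and 849, 141 and 328 FPKM at 24 hours. The same rat was the highest, and the log2 fold change of 1.21 ± 0.45 (adjusted p = 0.101) became 0.21 (adjusted p = 0.807 without SAP-24h rat 1). Of 29 proliferation genes 1 was called (3.45%, against 2.42% over all genes tested), with 26 below 0 and 3 above and a median log2 fold change of -1.07 (Sham -1.17, Con -1.62). It was Plk1, a mitotic kinase (log2 fold change -1.66 ± 0.45, adjusted p = 0.0335, called in 0 of 6 fits leaving out 1 rat).

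**Figure D4:**
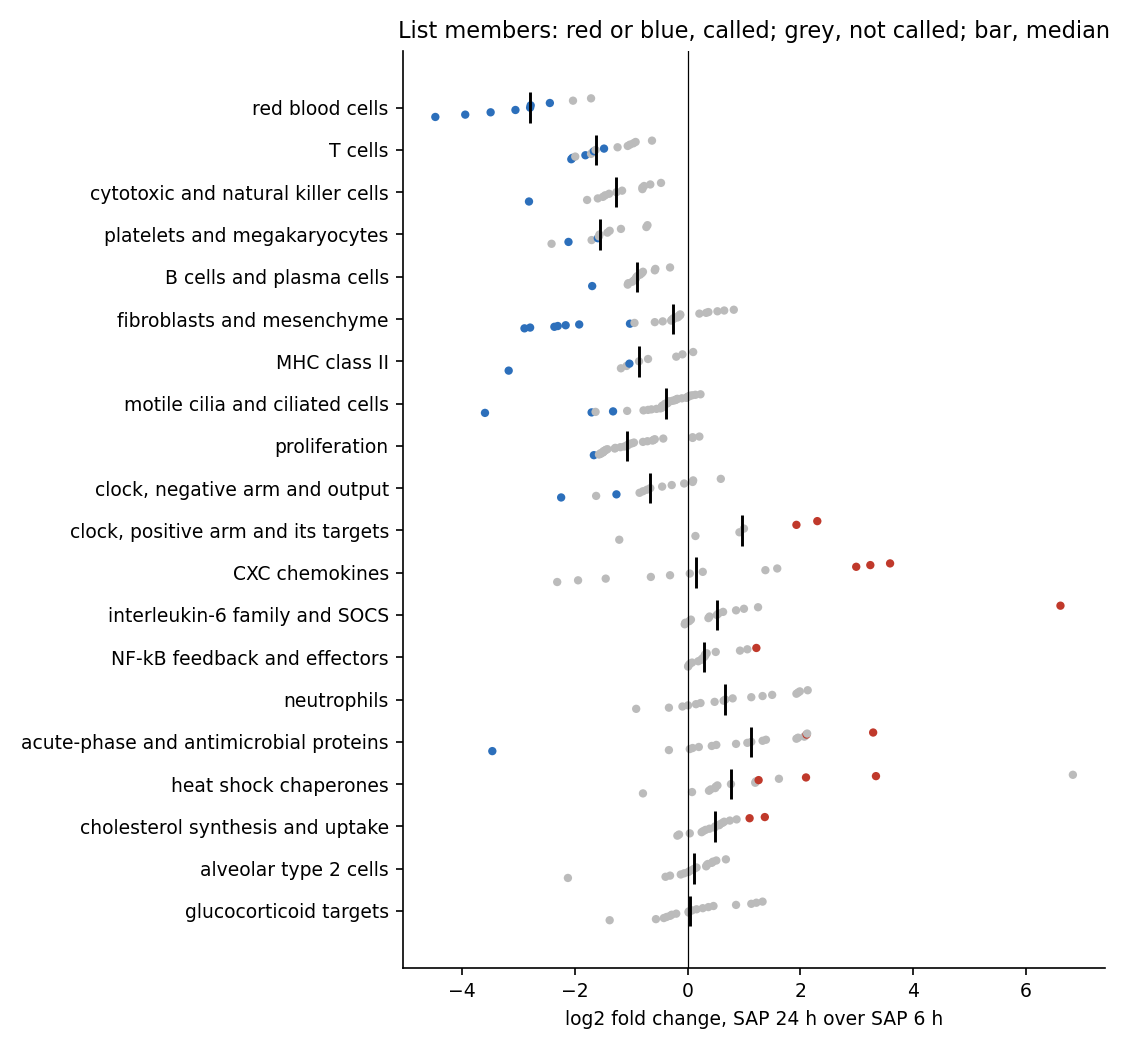
Each point is 1 tested member of a gene list, with its log2 fold change of SAP-24h over SAP-6h, red or blue where called and grey where not, and the bar is the median of the list. Red blood cell, T cell and platelet genes lie wholly below 0, while the median of the alveolar type 2 genes is 0.12.

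The 3 lncRNAs called were all higher at 24 hours, of 380 tested. Over all genes tested, 2.42% were called and 0.684% were called higher. AABR07030598.1 on chromosome 10 rose from 12.5, 7.73 and 11.04 FPKM to 17.4, 22.3 and 20.3 FPKM (log2 fold change 1.03 ± 0.28, adjusted p = 0.0315). It was called in 1 of 6 fits. The other two were under 1 FPKM, AABR07003304.2 at 0.10, 0.10 and 0.05 FPKM at 6 hours and 0.38, 0.43 and 0.68 FPKM at 24 hours (log2 fold change 2.59 ± 0.48), and AABR07060560.4 at 0.06, 0.08 and 0.09 FPKM at 6 hours and 0.13, 0.23 and 0.14 FPKM at 24 hours (log2 fold change 1.24 ± 0.35). AABR07003304.2 was called in 6 and AABR07060560.4 in 0 of the 6 fits. In Sham and Con over the same hours, the log2 fold changes were 2.15 and 2.08 for AABR07003304.2, 0.45 and 2.15 for AABR07060560.4 and 0.03 and 0.31 for AABR07030598.1.

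The same contrast was made in the control rats, which share no library with the SAP groups. By the study's account the Con rats had mild pancreatitis, so the Con change is not one of time alone. Between 6 and 24 hours, 41 genes (0.257%) were called in Sham, 39 higher and 2 lower, and 1 (0.00628%) in Con. Of the 386 genes called in SAP, 2 were called in Sham and 1 in Con, and 246 had the sign of the SAP change in both. The genes called lower in SAP had a median log2 fold change of -1.82 there, -0.36 in Sham and -0.47 in Con, and those called higher had 1.45, 0.25 and 0.19. Since these genes were selected on the SAP change, smaller medians in the controls are no test of a difference. Over all genes tested, Pearson's r was 0.17 between the SAP and Sham changes, 0.26 between SAP and Con and 0.23 between Sham and Con. These values are a description across genes, which are not independent replicates.

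**Figure D5:**
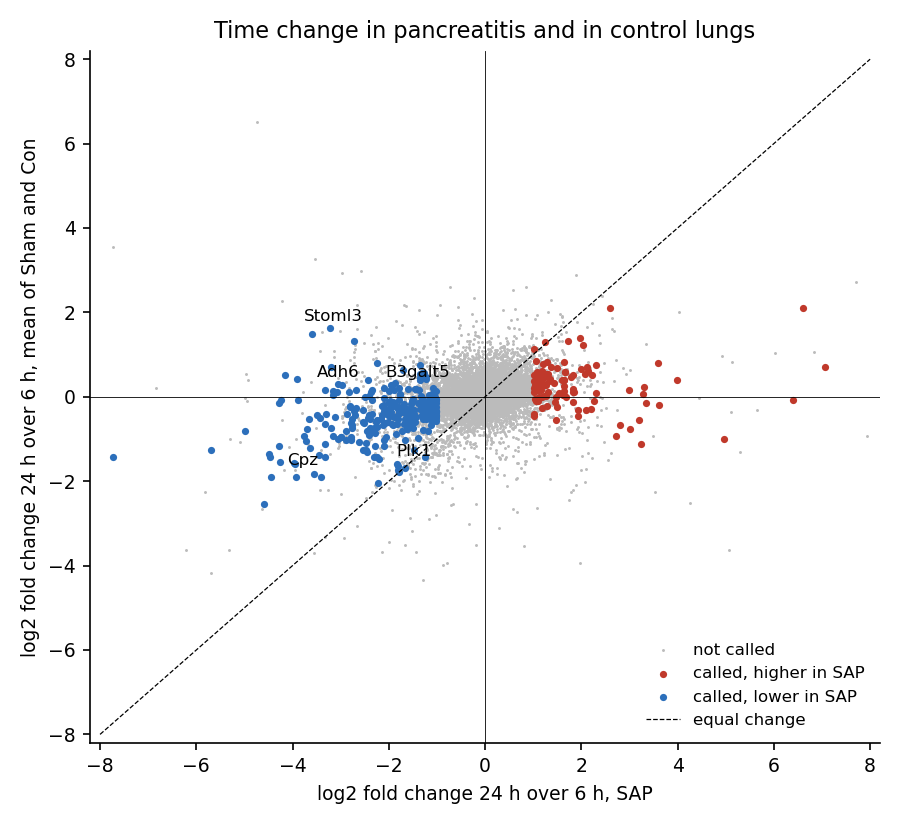
Each point is a gene, with the log2 fold change of 24 over 6 hours in SAP on the x axis and the mean of that in Sham and Con on the y axis, and the dashed line marks equal change. The called genes were selected for a large change in SAP, so their spread along the x axis follows from that choice. Plk1 lies close to the dashed line.

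Tested as a difference of time effects, far fewer genes passed. Against Sham, 5 genes (0.0314%) were called, 4 lower and 1 higher. The SAP change lay below the Sham change for Adh6 (-3.57 ± 0.60), Stoml3 (-7.04 ± 1.26), Zmynd12 (-2.98 ± 0.52) and Ccdc96 (-2.48 ± 0.46). It lay above the Sham change for the lncRNA AABR07054490.1 (1.48 ± 0.27), all as log2 differences with an adjusted p of 0.0471 for each. The 3 cilium genes fell in SAP and rose in Sham, Stoml3 being at 0.04, 0.03 and 0.08 FPKM in Sham-6h and 0.55, 0.58 and 0.51 in Sham-24h. They did not rise in this way in Con, with log2 fold changes of -0.46 for Stoml3, 0.02 for Zmynd12 and -0.03 for Ccdc96. None of the 3 was called against Con or against the mean of Sham and Con. Adh6 had a log2 fold change of 0.25 in Sham. The SAP change of AABR07054490.1 was not called. Its median over the Sham and Con rats was 7.13 FPKM at 6 hours and 5.17 FPKM at 24 hours. Against Con, 0 genes (0.00%) were called by edgeR, with 2038 at an unadjusted p under 0.05 and 94 called by DESeq2. Against the mean of Sham and Con, 3 genes (0.0188%) were called, Adh6 (-3.49 ± 0.53, adjusted p = 0.0145), B3galt5, a galactosyltransferase (-2.06 ± 0.36, adjusted p = 0.0453), and AABR07054490.1 (1.34 ± 0.23, adjusted p = 0.0453). Adh6 was at 8.48 to 20.6 FPKM in the control rats of 24 hours, above every SAP-24h rat. For the genes in the paragraphs above, the difference from the controls did not pass the threshold unless named here. For example, against the mean of Sham and Con it was 2.79 ± 0.74 for Cxcl1 (adjusted p = 0.137), -2.06 ± 0.57 for Col3a1 (adjusted p = 0.148) and 1.13 ± 0.21 for Insig1 (adjusted p = 0.0555). These calls were sensitive to single rats, the range over fits leaving out 1 rat being 0 to 16 against Sham, 0 to 22 against Con and 0 to 49 against their mean.

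Against the control rats of the same hour, the genes called lower fell into different positions. Of the 277, 143 had every SAP-24h rat below all 6 Sham and Con rats of 24 hours, as had 9.81% of all genes tested, and 19 had every SAP-6h rat above all 6 control rats of 6 hours, as had 2.04%. Both held for 2 genes and neither for 117. Adh6, Cd3e, Col3a1 and Bgn were of the first kind, and Apln, RT1-Ba and Tspo2 of the second. Of the 109 genes called higher, 26 had every SAP-24h rat above the controls of 24 hours (3.60% of all genes tested), among them Slurp1, Gpr84, Cxcl2, Ptx3, Timp1 and Insig1, and 13 had every SAP-6h rat below the controls of 6 hours (4.63%), among them Clspn. The SAP levels also entered the calls, so these counts are a description without a test. The study reports a lower share of uniquely mapped reads in every SAP library than in any Sham or Con library. The part of this in the positions was not tested.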

How the data were processed

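Lung RNA of 30 rats in 10 groups (3 rats each) was sequenced from directional polyA libraries. Per the study's methods, the authors trimmed the reads, mapped them with TopHat2 and deposited uniquely mapped read counts per gene and, for the same libraries, FPKM values rounded to 2 decimals. The methods name an Ensembl rat genome and annotation file, and antisense reads were discarded when FPKM values of lncRNA genes were computed. For the counts and the other genes, use of strand is not given in the sources used here. List members missing by symbol were looked up under other names in RefSeq. Of 22914 genes in the count table, 15934 passed edgeR's filterByExpr (minimum count 10, minimum total 15) by group. Counts were scaled by TMM and fitted with edgeR 4.0.16 (limma 3.58.1, R 4.3.3) by a quasi-likelihood model of all 10 groups without a block, so that the spread is shared over 30 libraries and 20 residual degrees of freedom. The Benjamini-Hochberg adjustment ran over the whole set of tested genes. A call required at least a 2-fold change and an adjusted p below 0.05. The contrasts were SAP-24h against SAP-6h and the difference of this from the Sham, the Con and the mean control time effect. The SE is the log2 fold change divided by the root of the F statistic. The scripts were tested on simulated counts. Alternatives were RLE scaling, DESeq2 1.42.0, other filters, only the groups compared, a replicate block, other thresholds and leaving out each rat. Counts of libraries of a group differed by far more than sampling noise.

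The gene lists, the rule for named genes and the members were chosen with earlier results of these data known. Named were the 12 genes in each direction with the largest change among called genes with a group mean of at least 1 FPKM, no overlap between groups and a gene symbol that is not a clone name or similar placeholder, up to 3 lncRNAs per direction by size, up to 4 called members of each list per direction, and markers. Genes said to be named after their values were seen lie outside the rule. Promoters came from RefSeq (GRCr8), matched by symbol. Intervals and floors cover counting error only. Tables were read with Python 3.11.15 (pandas 2.3.3, numpy 2.4.6) and drawn with matplotlib 3.10.9.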

Additional observations from a re-analysis of the deposited data

Results flagged for a closer look

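A difference between the SAP time effect and that of the control rats, tested as an interaction in edgeR, singled out 6 genes. Against Sham, the log2 difference was -3.57 for Adh6, -7.04 for Stoml3, -2.98 for Zmynd12, -2.48 for Ccdc96 and 1.48 for the lncRNA AABR07054490.1, with an adjusted p of 0.0471 for each. Against the mean of Sham and Con it was -3.49 for Adh6 (adjusted p = 0.0145), -2.06 for B3galt5 (adjusted p = 0.0453) and 1.34 for AABR07054490.1 (adjusted p = 0.0453). Each of these calls against Sham was lost in some of the fits that left out 1 rat, and for Adh6, SAP time effect minus mean Sham and Con time effect, the call was lost without SAP-6h rat 2 (adjusted p = 0.0815) and without SAP-24h rat 3 (adjusted p = 0.0726).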

How the results depend on the processing

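For SAP-24h vs SAP-6h, 386 calls became 589 with DESeq2, 177 with only the 6 SAP libraries, 1070 at an unadjusted p under 0.05 with 2-fold and 958 without a fold threshold, and 185 to 464 when 1 rat was left out. RLE scaling gave 389 calls, no filter 320, genes of at least 1 FPKM 335 and the replicate block 337. For the SAP time effect minus Sham time effect, 5 calls became 146 with DESeq2, 2 among genes of at least 1 FPKM, 0 with only the groups compared, 9 with the replicate block, 999 at an unadjusted p, and 0 to 16 when 1 rat was left out. For the SAP time effect minus Con time effect, 0 calls became 94 with DESeq2, 6 with only the groups compared, 1 with the replicate block, 741 at an unadjusted p, and 0 to 22. For the SAP time effect minus mean Sham and Con time effect, 3 calls became 5 with RLE scaling, 159 with DESeq2, 5 without a filter, 1 among genes of at least 1 FPKM, 6 with only the groups compared, 9 with the replicate block, 807 at an unadjusted p, and 0 to 49. The cause of these shifts was not tested. Of 99 named genes called, RLE scaling kept 99, DESeq2 95, no filter 86, the replicate block 86 and the fit of the 6 SAP libraries 48 of 93, while 332 of 594 calls held when 1 rat was left out, and none of these 99 changed direction. Replicate numbers did not pair the rats, since deviations of same-numbered rats correlated at 0.09, -0.12 and 0.08. Genes with few reads, such as Il6, Tspo2 and Igll1, are the least precise.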
